A study of Mus musculus with 12 samples.

Results

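The NRF2 pathway was followed at the level of RNA in mouse bone marrow-derived macrophages (BMDMs), through 10 genes chosen by name: the transcription factor gene Nfe2l2 (NRF2), its repressors Keap1 and Bach1, its small MAF partner Mafg, and 6 core target genes, Nqo1, Hmox1, Gclm, Gclc, Slc7a11 and Osgin1. All 10 were found by Ensembl identifier among the 48795 genes listed, and all 10 passed the filter on low counts that left 11228 genes for testing. The question was how the genes were graded between particulate matter (PM) alone and PM after 4-octyl itaconate (OI), a cell-permeable form of itaconate. WT cells carried the strain label C57BL/6 and Acod1-/- cells the label C57BL/6NJ-Acod1em1(IMPC)J/J, and the methods of the study name C57BL/6NJ mice as the source of WT marrow. Itaconate is made in mitochondria by the product of Acod1. Cells of each genotype received vehicle, PM (urban dust, 20 µg/cm2, 24 hours), or a 2-hour pretreatment with 0.25 mM OI followed by the same PM exposure, with 2 libraries in each of the 6 groups. OI without PM was not among the groups, so the effect of OI was seen only on top of PM. The mice of both strains were male and 7 to 11 weeks old, their number is not given in the sources used here, and nothing says whether the 2 libraries of a group came from separate cultures, so p-values measure the spread between libraries, which may be technical.

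NRF2 is a transcription factor whose protein is held low in resting cells by KEAP1, a cysteine-rich adaptor that delivers it to the CUL3 ubiquitin ligase. Electrophiles and oxidants that modify KEAP1 let NRF2 accumulate, enter the nucleus, pair with a small MAF protein and bind antioxidant response elements (AREs) in its target genes, while BACH1 competes for many of the same elements and represses them until heme releases it. Because NRF2 is controlled largely through the stability of its protein, RNA of its target genes, rather than RNA of Nfe2l2 itself, is the usual readout of its activity in macrophages.

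Sequence near the start sites was read from RefSeq promoter windows (GRCm38.p6), which run from 250 bases before to 50 bases after a start and covered 8 of the 10 genes. Hmox1 and Gclc had no window and were not searched. The ARE core was searched as TGACNNNGC on both strands, and it occurred in 3 of these 8 windows, Nfe2l2, Gclm and Mafg, against 12.4% of all 32851 windows 10 of 30 windows of other NRF2 target genes and 2 of 23 windows of NRF2 partners and turnover genes. The AP-1 element, searched as TGANTCA on both strands, can lie within a longer ARE and occurred in Osgin1, against 7.81% of all windows. In Slc7a11, whose induction by amino acid shortage runs through amino acid response elements, the letters TGATGNAA occurred on each strand once, against 3.97% of all windows, and this motif was chosen after the sequence was seen. The stretches shown are those that held a match, with the matched letters in capitals, 5′ to 3′ on the strand of the gene. The Nfe2l2 stretch lies at chr2:75704875-75704913 (minus strand), with its match at positions -240 to -232 from the start. The Gclm stretch lies at chr3:122245403-122245451 (plus strand), with its match at positions -134 to -126 on the other strand. The Mafg stretch lies at chr11:120633741-120633789 (minus strand), with its match at positions -222 to -214 on the other strand. The Osgin1 stretch lies at chr8:119437030-119437076 (plus strand), with its match at positions -97 to -91. The Slc7a11 stretch lies at chr3:50443633-50443699 (minus strand), with matches at positions -66 to -59 and -47 to -40. A match describes letters in these windows and is not a binding site, and AREs that lie farther from a start are outside them.
Nfe2l2: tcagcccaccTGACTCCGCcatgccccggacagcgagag
Gclm: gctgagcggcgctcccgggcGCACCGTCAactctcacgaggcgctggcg
Mafg: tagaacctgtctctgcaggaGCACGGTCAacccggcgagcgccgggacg
Osgin1: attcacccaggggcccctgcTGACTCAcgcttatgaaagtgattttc
Slc7a11: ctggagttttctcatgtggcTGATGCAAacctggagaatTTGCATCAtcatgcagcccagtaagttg

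The libraries held between 33616577 and 36817898 counts. All 8 macrophage markers were detected in every library, and their sum moved with treatment, from 14257 to 14578 CPM with vehicle to 23156 to 27299 with PM and 14407 to 16613 with OI+PM. Lyz2 made up most of it. Fcgr1 stood at 106 ± 1.68 CPM with PM and 28.0 ± 0.348 with OI+PM in WT (SD, n = 2). Mertk stood at means of 72.5 and 33.7 CPM. In WT, mean Adgre1 went from 1442.5 CPM with PM to 930 with OI+PM and Csf1r from 1530 to 1247. Cd14 went from 259 to 154 and Itgam from 571 to 522.5, while Cd68 went up from 1541 to 1781. Adgre1 was higher in Acod1-/- cells under each treatment, with means of 1820.5 against 1328 CPM in WT with vehicle. Cd14 stood at 272 CPM in Acod1-/- cells against 173 in WT with vehicle, 370 against 259 with PM and 129 against 154 with OI+PM. T cell, B cell, erythroid and mast cell markers were at or near 0, with summed levels of at most 0.0832 CPM (read counts scaled to a common library size by TMM) in any library. Dendritic cell markers summed to 0.101 to 0.546 CPM, and the 4 fibroblast markers to 1.41 to 2.34 CPM with vehicle, to 1.12 to 1.26 with PM in WT against 1.91 to 2.30 in Acod1-/- cells, and to 0.27 to 0.931 with OI+PM. The 6 neutrophil markers together stood at 5.36 to 5.79 CPM with vehicle, 11.5 to 17.8 with PM and 29.5 to 61.2 with OI+PM, and S100a8, which macrophages can also express, made up most of that sum, between 3.52 CPM with vehicle and 60.4 CPM with OI+PM, while Ly6g, Mpo and Elane stayed at 0 to 0.191 CPM. Of the other two, Cxcr2 stood at 0.137 to 0.508 CPM, and S100a9 at 0.934 to 1.34 CPM with vehicle, 1.26 and 2.16 with PM in WT against 3.23 and 3.30 in Acod1-/- cells, and 0.419 and 0.473 with OI+PM in WT against 1.02 and 1.05 in Acod1-/- cells. The part of these markers in the results was not tested. The 2 WT OI+PM libraries and the 2 WT PM libraries differed more than other pairs, with a chi-square per degree of freedom over genes of 58.5 and 27.3 against 2.61 to 8.32, and their differences tracked exonic length (Spearman's rho of 0.61 and 0.60 across genes, which are not independent). The rho was -0.36 for the Acod1-/- PM pair, 0.29 for Acod1-/- OI+PM, 0.28 for WT vehicle and -0.08 for Acod1-/- vehicle. In bulk RNA, fewer expressing cells and less RNA per cell cannot be told apart.

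The targeted gene was read in every library. Acod1 stood at 1.84 and 2.49 CPM in WT cells with vehicle, 181 and 170 with PM, and 32.5 and 57.0 with OI+PM. In the libraries labelled Acod1-/- it stood at 1.26 and 1.22 CPM with vehicle, 107 and 93.9 with PM, and 24.4 and 26.8 with OI+PM, lower than WT under each treatment but not absent. Counts are given per gene and cannot be traced to single exons, so they check the genotype only in part. The study also measured itaconate itself in BMDMs after PM and detected it in WT cells only. By qPCR it reports no Acod1 RNA in alveolar macrophages of Acod1-/- mice, a different cell type.

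**Figure D1:**
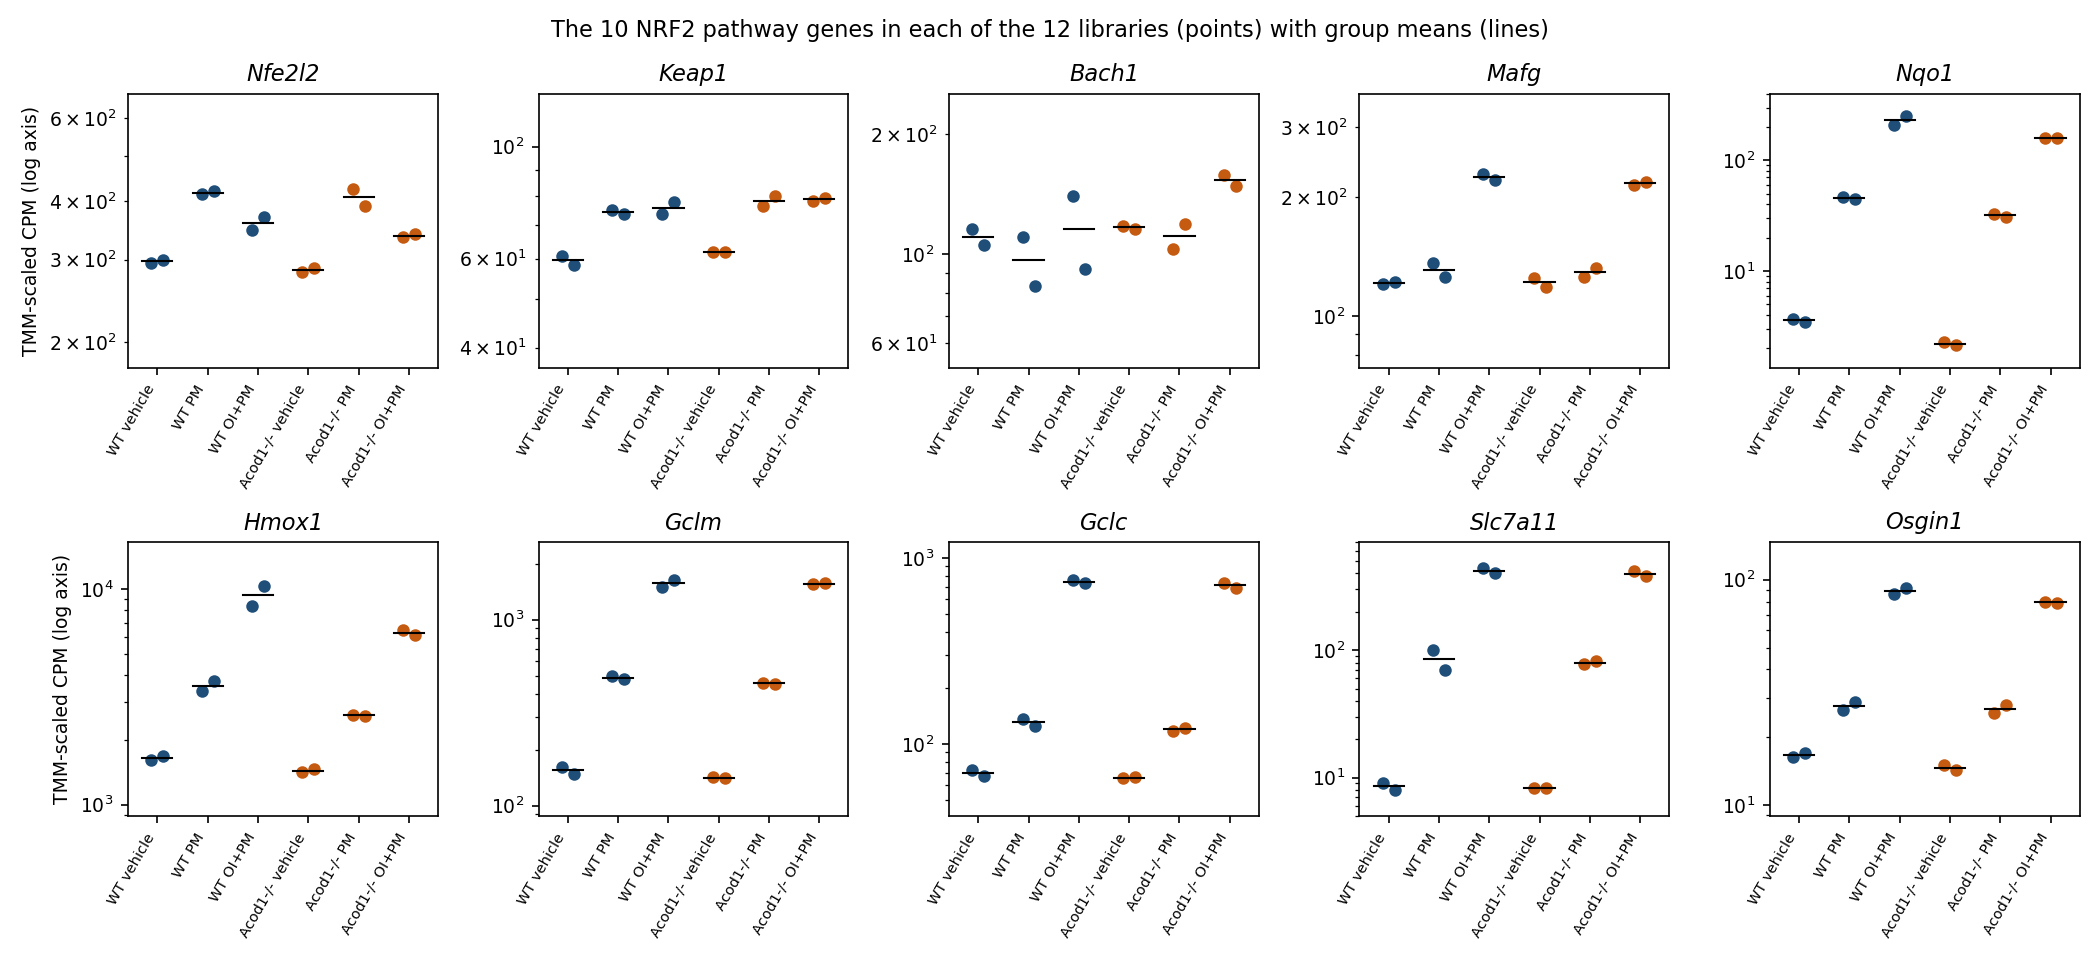
TMM-scaled CPM on a log axis for the 10 genes in each of the 12 libraries, with WT in blue, Acod1-/- in orange, each point a library and each line the mean of 2 libraries. The 6 target genes climb from vehicle to PM to OI+PM in both genotypes (Nqo1 from 3.71 and 3.46 to 209 and 251 CPM in WT), whereas Nfe2l2 is highest with PM alone.

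PM raised the target genes and, by less, the genes for NRF2 and KEAP1. In WT BMDMs 8 of the 10 genes rose after PM and 0 fell, by edgeR's quasi-likelihood test at an adjusted p of 0.05 or less, where 12.6% of all genes tested rose and 12.2% fell. In Acod1-/- cells the same 8 genes rose and 0 fell, against 12% and 11.9% of all genes. No gene of the 10 was lower at an unadjusted p of 0.05 or in DESeq2 either. DEGs, with at least a 2-fold change as well, numbered 4 in WT (3.02% of all genes were DEGs that rose). They were Nqo1, Slc7a11, Gclm and Hmox1, and the same without Hmox1 made 3 in Acod1-/- cells (3.19% of all genes). Under the alternatives the log2 change of Hmox1 in WT ran from 0.90 to 1.19, on both sides of the 2-fold limit. The median log2 fold change of the 10 genes was 0.82 in WT and 0.86 in Acod1-/- cells, beside 0.01 in WT and close to 0 in Acod1-/- cells over all genes tested.

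Nqo1, the quinone reductase that is a standard NRF2 readout, had the largest fitted rise. In WT it stood at 3.71 and 3.46 CPM with vehicle and at 46.9 and 44.7 CPM with PM, a log2 change of 3.68 (SE 0.11, adjusted p = 3.96e-08 in edgeR). In Acod1-/- cells it went from 2.27 and 2.14 CPM to 32.6 and 31.0 CPM, a log2 change of 3.85 (SE 0.11, adjusted p = 4.8e-08 in edgeR). The 4 PM libraries lay far above the 4 vehicle libraries, in which 77 to 139 reads supported the value. In WT the order of Nqo1 and Slc7a11 was not resolved, with ranges of 3.44 to 3.73 and 3.04 to 3.61 under the alternatives. In Acod1-/- cells the ranges did not meet, at 3.68 to 3.89 and 3.18 to 3.52.

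Slc7a11 encodes the light chain of the cystine-glutamate exchanger, which supplies cysteine for glutathione. It stood at 9.10 and 7.96 CPM with vehicle and at 101 and 70.3 CPM with PM in WT, a log2 change of 3.33 (SE 0.16). In Acod1-/- cells it went from 8.30 and 8.35 CPM to 77.2 and 81.9 CPM, a log2 change of 3.26 (SE 0.16). The WT PM libraries were apart by 0.52 on the log2 scale, the widest gap of a pair for this gene, yet no PM library approached a vehicle library.

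Gclm and Gclc encode the modifier and catalytic subunits of glutamate-cysteine ligase, the rate-limiting enzyme of glutathione synthesis, and they rose unequally. Gclm went from 162 and 148 CPM to 498 and 479 CPM in WT and from 142 and 140 to 457 and 453 CPM in Acod1-/- cells, log2 fold changes of 1.66 and 1.69 (SE 0.06 each). Gclc went from 72.2 and 67.2 CPM to 136 and 125 CPM in WT and from 65.3 and 66.5 to 118 and 122 CPM in Acod1-/- cells, log2 fold changes of 0.91 and 0.86 (SE 0.07 each). Every PM library lay above every vehicle library for both subunits, but the share of all genes with such separation was not counted.

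Hmox1, the inducible heme oxygenase and a classical target of both NRF2 and BACH1, was the most abundant of the 10 genes per kb of exon in each group. It went from 1616 and 1677 CPM to 3367 and 3777 CPM in WT, a log2 change of 1.12 (SE 0.09), and from 1413 and 1462 to 2621 and 2595 CPM in Acod1-/- cells, a log2 change of 0.86 (SE 0.09). Osgin1, an oxidative stress-induced growth inhibitor, rose from 16.3 and 17.0 CPM to 26.4 and 28.6 CPM in WT and from 15.0 and 14.3 to 25.5 and 27.8 CPM in Acod1-/- cells, log2 fold changes of 0.73 and 0.87 (SE 0.08 each). For both genes the PM and vehicle libraries did not overlap, with no share over all genes counted beside it.

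Among the regulators, Nfe2l2 rose from 296 and 300 CPM to 415 and 419 CPM in WT and from 282 and 288 to 424 and 391 CPM in Acod1-/- cells, log2 fold changes of 0.49 and 0.51 (SE 0.06 each, adjusted p = 0.000257 and 0.000159 in edgeR). Keap1 rose from 60.8 and 58.3 CPM to 75.0 and 73.4 CPM in WT and from 61.9 and 61.9 to 76.4 and 79.7 CPM in Acod1-/- cells, log2 fold changes of 0.32 and 0.33 (SE 0.06 each). The WT call for Keap1 did not hold without WT vehicle replicate 2 (0.29, adjusted p = 0.0561 in edgeR), and an overlapping gene on the opposite strand, Gm16754, took 8 to 75 reads. Bach1 and Mafg did not pass the test after PM in either genotype, with log2 differences of -0.19 and -0.07 for Bach1 (SE 0.18 each) and 0.11 and 0.09 for Mafg (SE 0.06 each). With a gene length offset Mafg passed in WT (0.16, adjusted p = 0.0365 in edgeR).

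OI on top of PM raised all 6 target genes again, brought in Mafg and lowered Nfe2l2. In each genotype 7 of the 10 genes rose and 1 fell. Of all genes tested, 21.3% rose and 22.6% fell in WT, and 13.9% rose and 20.6% fell in Acod1-/- cells. The 6 target genes were DEGs in both genotypes, where 2.3% of all genes in WT and 1.85% in Acod1-/- cells were DEGs that rose. The median log2 fold change of the 10 genes was 1.54 in WT and 1.43 in Acod1-/- cells, beside 0.02 in WT and close to 0 in Acod1-/- cells over all genes. These comparisons share the PM libraries with those of PM against vehicle.

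Gclc had the largest fitted gain from OI. It stood at 136 and 125 CPM with PM and at 762 and 730 CPM with OI+PM in WT, a log2 change of 2.51 (SE 0.07, adjusted p = 4.87e-09 in edgeR). In Acod1-/- cells it went from 118 and 122 CPM to 736 and 693 CPM, a log2 change of 2.58 (SE 0.07, adjusted p = 4.31e-09 in edgeR). By fitted rise it ranked 14 of the 11228 genes tested in WT and 9 in Acod1-/- cells. Under the alternatives the WT change ran from 2.39 to 2.57 for Gclc, 2.07 to 2.58 for Slc7a11 and 2.17 to 2.45 for Nqo1. The lead of Gclc among these was thus not resolved in WT. In Acod1-/- cells its range of 2.51 to 2.62 lay above those of Slc7a11 and Nqo1, which reached 2.39 and 2.36.

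Nqo1 reached 209 and 251 CPM in WT and 159 and 159 CPM in Acod1-/- cells with OI+PM, log2 fold changes over PM of 2.33 and 2.32 (SE 0.09 each). Slc7a11 reached 441 and 402 CPM in WT and 417 and 381 CPM in Acod1-/- cells, log2 fold changes over PM of 2.30 and 2.33 (SE 0.15 each). These came to about the same fold, 5.03 and 4.99 for Nqo1 and 4.93 and 5.01 for Slc7a11.

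Gclm reached 1506 and 1635 CPM in WT and 1548 and 1581 CPM in Acod1-/- cells, log2 fold changes over PM of 1.68 and 1.78 (SE 0.06 each). Osgin1 reached 86.0 and 91.9 CPM in WT and 79.8 and 79.2 CPM in Acod1-/- cells, log2 fold changes over PM of 1.69 and 1.58 (SE 0.08 each). Hmox1 reached 8414 and 10386 CPM in WT and 6477 and 6144 CPM in Acod1-/- cells, log2 fold changes over PM of 1.40 and 1.27 (SE 0.10 and 0.09). For all 6 target genes the lowest OI+PM library of either genotype lay above the highest PM library. How many of all genes were apart in this way was not counted. By the test, 21.3% of all genes rose in WT and 13.9% in Acod1-/- cells.

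Mafg, which had not passed the test after PM, rose with OI from 136 and 125 CPM to 228 and 222 CPM in WT and from 126 and 133 to 215 and 219 CPM in Acod1-/- cells, log2 fold changes of 0.78 and 0.75 (SE 0.06 each, adjusted p = 5.14e-06 and 7.97e-06 in edgeR). Its exons overlap those of Sirt7, at 1825 to 2076 reads per library, so the counting of shared reads makes its level uncertain. Nfe2l2 moved the other way and fell from 415 and 419 CPM to 347 and 370 CPM in WT and from 424 and 391 to 335 and 340 CPM in Acod1-/- cells. Its log2 fold changes were -0.22 and -0.27 (SE 0.06 each, adjusted p = 0.0131 and 0.00499 in edgeR). The fall did not pass in WT when the 2 compared groups were fitted alone (-0.24, adjusted p = 0.18 in edgeR) or in Acod1-/- cells without Acod1-/- PM replicate 1 (-0.21, adjusted p = 0.0515 in edgeR).

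Keap1 did not pass the test between OI+PM and PM, at 73.5 and 77.6 CPM in WT and 77.9 and 79.3 CPM in Acod1-/- cells, with log2 differences of 0.03 and 0.01 (SE 0.06 each). Bach1 did not pass either, at 140 and 92.0 CPM in WT and 158 and 149 CPM in Acod1-/- cells. Its log2 differences were 0.26 and 0.46 (SE 0.18 each, adjusted p = 0.275 and 0.0781 in edgeR). Both Acod1-/- OI+PM libraries lay above both Acod1-/- PM libraries (103 and 119 CPM), whereas the WT libraries overlapped. The Acod1-/- difference was called under 7 of 21 alternatives, with adjusted p from 1.04e-05 without the filter on low counts to 0.318 (0.0457 by DESeq2). In WT the Bach1 difference was -0.07 without WT OI+PM replicate 1, and 0.53 without replicate 2, where it passed (adjusted p = 0.0107 in edgeR), as it did without the filter on low counts (0.26, adjusted p = 0.0341 in edgeR). The 2 WT OI+PM libraries were apart by 0.60 for Bach1, more than for any other of the 10 genes in that group.

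**Figure D2:**
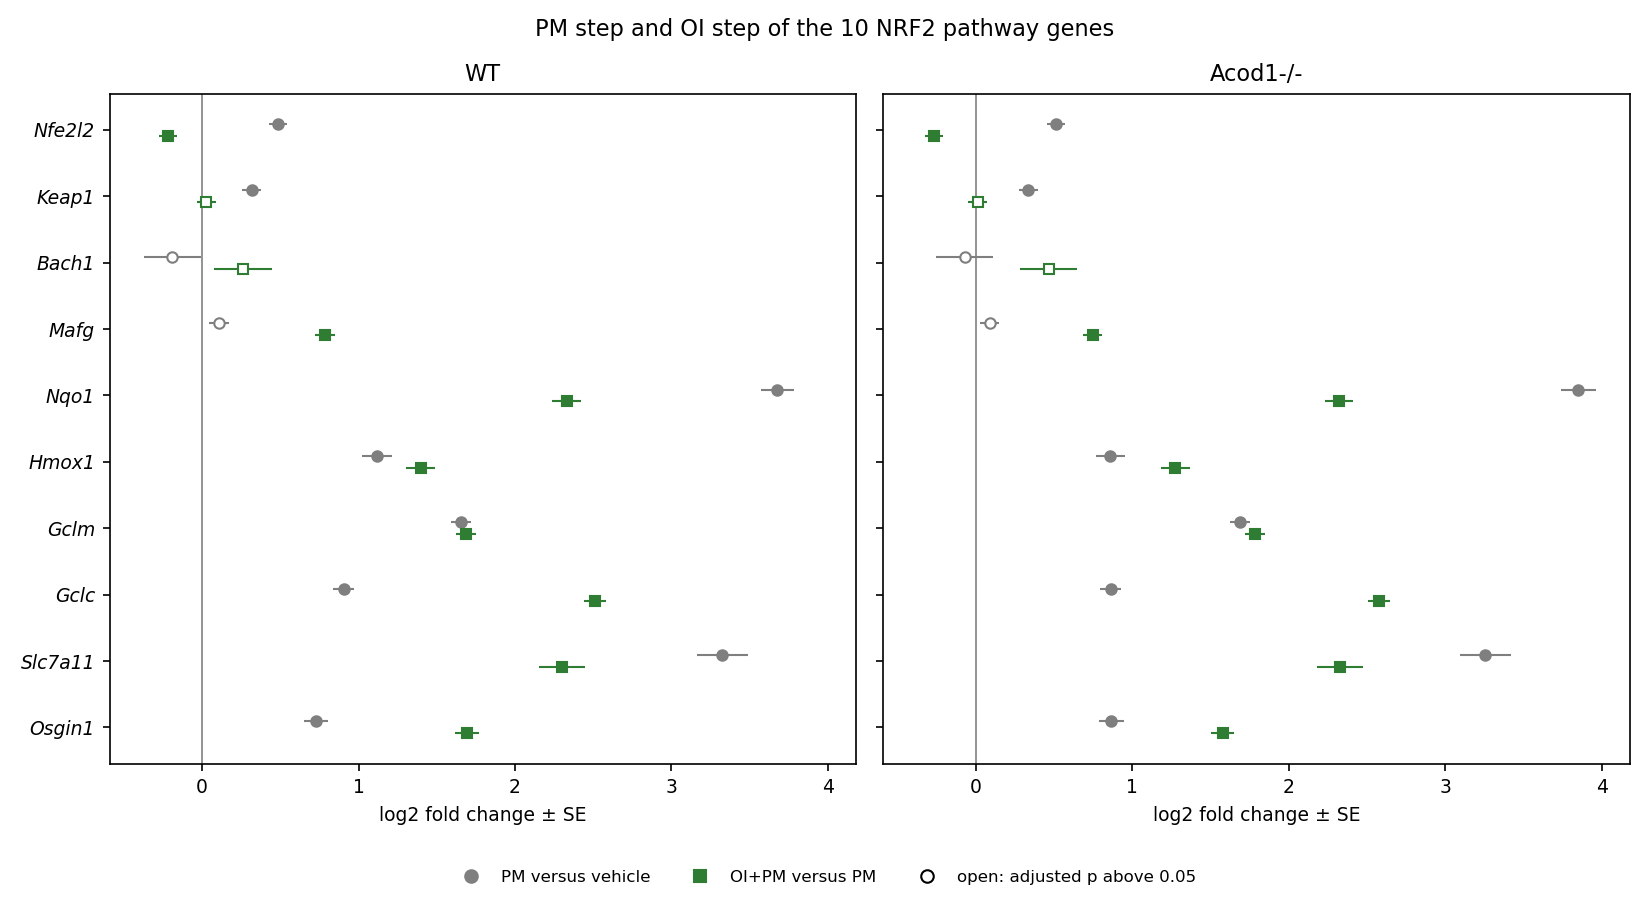
Log2 fold change ± SE of each gene from vehicle to PM (grey circles) and from PM to OI+PM (green squares) in WT (left) and Acod1-/- cells (right), with open symbols where the adjusted p was above 0.05. For Nqo1 and Slc7a11 the grey circle lies to the right of the green square, for Gclc, Osgin1 and Mafg it lies to the left, and for Gclm they nearly coincide.

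The grading differed between genes. Each gene's OI step (OI+PM against PM) was set against its PM step (PM against vehicle) in the same fit, as a contrast in which the PM libraries enter both steps with opposite sign. Gclc, Osgin1 and Mafg had a larger OI step, with differences of 1.61, 0.97 and 0.67 on the log2 scale in WT and 1.72, 0.71 and 0.66 in Acod1-/- cells (SE 0.11 to 0.13). Nqo1, Slc7a11 and Nfe2l2 had a larger PM step, with differences of -1.35, -1.03 and -0.70 in WT and -1.53, -0.93 and -0.78 in Acod1-/- cells (SE 0.10 to 0.25). Thus 3 of the 10 genes passed in each direction in each genotype, where 6.08% of all genes had a larger OI step and 13.8% a larger PM step in WT, and 6.39% and 13.8% in Acod1-/- cells.

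The Slc7a11 difference moved with single libraries in WT, where it was -0.46 (adjusted p = 0.132 in edgeR) without WT PM replicate 1 and -1.50 without WT PM replicate 2. The WT call also ended without WT vehicle replicate 2 (-0.93, adjusted p = 0.0599 in edgeR) and with the WT groups fitted alone (-1.03, adjusted p = 0.106 in edgeR). The Slc7a11 call in Acod1-/- cells ended without any of 5 of the 6 Acod1-/- libraries, with differences of -1.01 to -0.84 and adjusted p from 0.0697 to 0.16 in edgeR, and held without OI+PM replicate 1. Without Acod1-/- PM replicate 1 Osgin1 gave 0.59 (adjusted p = 0.06 in edgeR). Gclm had steps of near equal size, with differences of 0.03 and 0.10 (SE 0.11 each). The differences for Hmox1 were 0.28 and 0.42 (SE 0.16 each), those for Keap1 were -0.29 and -0.32 (SE 0.10 each), and those for Bach1 were 0.45 and 0.54 (SE 0.32 each), and none of the 4 genes passed in either genotype. For Hmox1, Keap1 and Bach1 this depended on the setting. When a library was left out, the WT difference ran from 0.114 to 0.449 for Hmox1 and from 0.068 to 0.894 for Bach1. That of Bach1 in Acod1-/- cells ran from 0.330 to 0.758. Hmox1 passed under 4 of 21 alternatives in WT (adjusted p from 0.016 to 0.725) and under 7 in Acod1-/- cells (8.46e-05 to 0.33). Keap1 passed under 3 in WT (0.0284 to 0.483) and 7 in Acod1-/- cells (0.00764 to 0.42), and Bach1 under 1 in WT (0.0282 to 0.936) and 2 in Acod1-/- cells (0.000943 to 0.756). The cause was not tested.

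Seen as shares of the whole log2 rise from vehicle to OI+PM, PM alone reached 61.2% in WT and 62.4% in Acod1-/- cells for Nqo1 and 59.1% and 58.3% for Slc7a11. It reached 49.6% and 48.6% for Gclm and 44.5% and 40.3% for Hmox1. The share was 30.0% and 35.5% for Osgin1, 26.5% and 25% for Gclc and 12.2% and 10.4% for Mafg. The Mafg share is imprecise, because its PM step did not pass. With a library left out, that step ran from 0.04 to 0.17 in WT and 0.05 to 0.13 in Acod1-/- cells. The order of these 7 genes was the same in both genotypes. The PM step of Slc7a11 in WT ran from 3.04 to 3.56 with a library left out, so the order of Nqo1 and Slc7a11 there was not resolved.

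Over both steps, 9 of the 10 genes were higher with OI+PM than with vehicle in each genotype and 0 were lower, against 33.6% and 31.9% of all genes in WT and 22.7% and 26.7% in Acod1-/- cells. By DESeq2 and at an unadjusted p of 0.05, 0 were lower as well. The 6 target genes were DEGs in both (5.38% of all genes in WT and 3.88% in Acod1-/- cells were DEGs that rose). Nqo1 was 64.2-fold higher in WT and 72.0-fold higher in Acod1-/- cells, Slc7a11 49.4-fold and 47.9-fold, Gclc 10.7-fold and 10.8-fold, and Gclm 10.1-fold and 11.1-fold. Hmox1 was 5.71-fold and 4.39-fold higher and Osgin1 5.35-fold and 5.44-fold. Nfe2l2 remained above vehicle, with log2 fold changes of 0.27 and 0.24 (SE 0.06 each), as did Keap1, with 0.34 in both (SE 0.06 each). The Nfe2l2 call ended in WT with the 2 compared groups fitted alone (0.25, adjusted p = 0.0583 in edgeR) and in Acod1-/- cells without Acod1-/- vehicle replicate 1 (0.23, adjusted p = 0.0539 in edgeR). These small differences also depended on scaling, and with total counts in place of TMM, which moved the median of all genes to -0.20 in WT and -0.15 in Acod1-/- cells, Nfe2l2 gave 0.04 and 0.09 and Keap1 0.12 and 0.20, of which only the Keap1 value in Acod1-/- cells passed. Bach1 did not pass over both steps, with 0.07 and 0.39 (adjusted p = 0.75 and 0.101 in edgeR), and in Acod1-/- cells it passed under 6 of 21 alternatives, with adjusted p from 2.04e-10 to 0.342.

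Levels were also compared between genes, as CPM per kb of exon. With vehicle, Hmox1 (940 ± 24.3 in WT, SD, n = 2) and Nfe2l2 (78.5 ± 0.78) led, and Nqo1 (2.31 ± 0.115) and Slc7a11 (0.613 ± 0.0581) were lowest. With PM, Nqo1 reached 29.5 ± 0.98 in WT, next to Gclc at 34.7 ± 2.20, and ranked 5 of the 10 genes. With OI+PM, it stood at 148 ± 18.9 and ranked 4, below Hmox1 (5368 ± 796), Gclm (250 ± 14.6) and Gclc (198 ± 5.93), and above Nfe2l2 (94.5 ± 4.35). Keap1 (16.1 ± 0.617) and Bach1 (18.8 ± 5.49) did not differ beyond their spread there and were the lowest. In Acod1-/- cells the order with OI+PM was the same, and with vehicle Nqo1 and Slc7a11 were again the lowest, at 1.42 ± 0.0596 and 0.598 ± 0.00239.

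The balance between the glutamate-cysteine ligase subunits shifted with PM and shifted back with OI. The ratio of Gclc to Gclm, per kb, was 0.743 and 0.760 in WT with vehicle, 0.458 and 0.435 with PM, and 0.845 and 0.746 with OI+PM. In Acod1-/- cells it was 0.766 and 0.792, 0.429 and 0.450, and 0.795 and 0.733. The 4 PM libraries lay below all others, and those with vehicle and OI+PM overlapped. The genes Gm17494 and Gm6061 overlap exons of Gclm and took 0 to 8 reads.

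**Figure D3:**
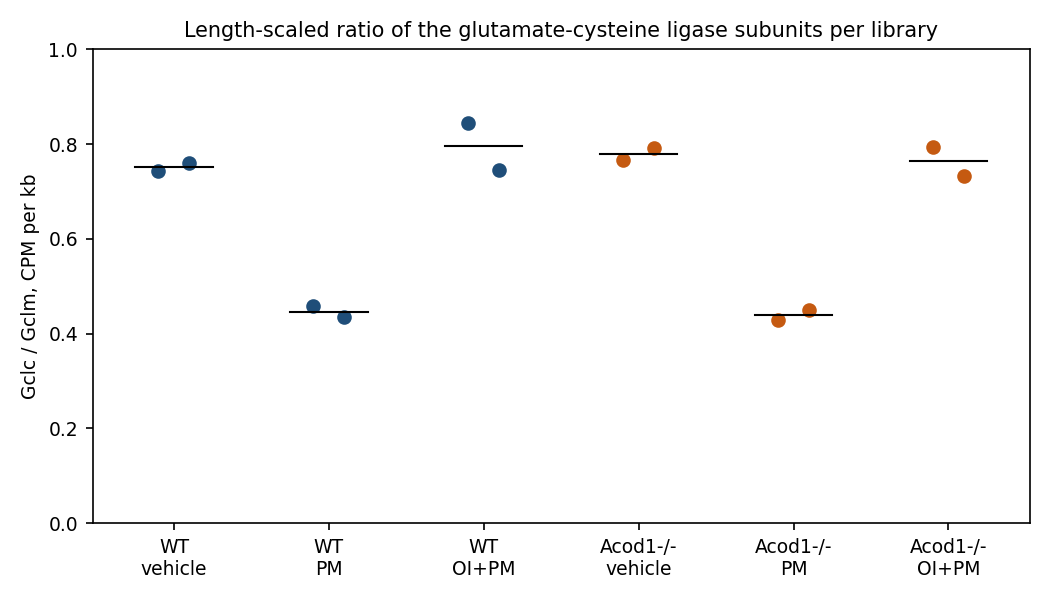
Ratio of Gclc to Gclm, each as CPM per kb of exon, in every library by group, with points for libraries and lines for means of 2. The PM libraries of both genotypes sit between 0.429 and 0.458, and the vehicle and OI+PM libraries between 0.733 and 0.845.

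Acod1-/- and WT cells were compared under each treatment to ask whether loss of the itaconate enzyme changed the pathway. Of the 10 genes, 1 was lower in the libraries labelled Acod1-/- with vehicle (Nqo1), 2 with PM (Nqo1 and Hmox1) and 2 with OI+PM (Nqo1 and Hmox1), and 0 were higher in edgeR, in DESeq2 or at an unadjusted p of 0.05. Of all genes, 0.891% were higher and 0.935% lower with vehicle, 1.1% and 1.3% with PM, and 2.51% and 4.45% with OI+PM. Nqo1 gave log2 differences of -0.70 (SE 0.13, adjusted p = 0.0234 in edgeR) with vehicle, -0.53 (SE 0.09, adjusted p = 0.013 in edgeR) with PM and -0.54 (SE 0.08, adjusted p = 0.00836 in edgeR) with OI+PM. Under every treatment both Acod1-/- libraries lay below both WT libraries for Nqo1. Hmox1 gave -0.20 (SE 0.09, adjusted p = 0.553 in edgeR) with vehicle, -0.45 (SE 0.09, adjusted p = 0.0364 in edgeR) with PM and -0.57 (SE 0.09, adjusted p = 0.0093 in edgeR) with OI+PM. Its libraries did not overlap either. The share of all genes with such separation was not counted, and with vehicle the Hmox1 libraries were apart although the test was not passed. With vehicle, Hmox1 passed under 2 of 21 alternatives, the 2 groups fitted alone (-0.21, adjusted p = 1.07e-05 in edgeR) and no filter on low counts (-0.19, adjusted p = 0.0317 in edgeR), and adjusted p reached 1 under others.

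With 2 libraries a group, the calls did not all hold when a library was left out, while the Nqo1 differences with vehicle and with PM changed little. Leaving out either library of the 2 compared groups ended the Nqo1 call with vehicle (log2 differences of -0.75 to -0.65, adjusted p from 0.11 to 0.243 in edgeR) and with PM (-0.57 to -0.49, adjusted p from 0.0573 to 0.139 in edgeR). The Hmox1 call with PM ended without any of 9 libraries, of which WT PM replicate 2 moved the value furthest, to -0.37 (adjusted p = 0.223 in edgeR), and those of other treatments left it at -0.45. With OI+PM, both calls ended without either Acod1-/- OI+PM library (-0.54 in both cases for Nqo1, -0.61 and -0.54 for Hmox1, adjusted p from 0.0698 to 0.0966 in edgeR) or with the 2 groups fitted alone (-0.51 and -0.55, adjusted p = 0.284 and 0.272 in edgeR), and without WT OI+PM replicate 1 the count called went from 2 to 4 of the 10 genes while that over all genes went from 6.96% to 48.6%, so the 4 lie near the background. When any library was left out, the differences with OI+PM ran from -0.66 to -0.40 for Nqo1 and from -0.72 to -0.415 for Hmox1. Over all 21 alternatives the smallest differences in size were -0.35 for Nqo1 and -0.40 for Hmox1. The genotype, the colony of the mice and their strain label cannot be told apart. The other 8 genes lay between -0.19 and 0.40 on the log2 scale over the 3 treatments and did not pass. Their SEs were 0.06 to 0.18, so differences of that size were not resolved. Under the alternatives Bach1 with OI+PM ran from 0.13 to 0.74 and Slc7a11 with PM from -0.34 to 0.18.

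**Figure D4:**
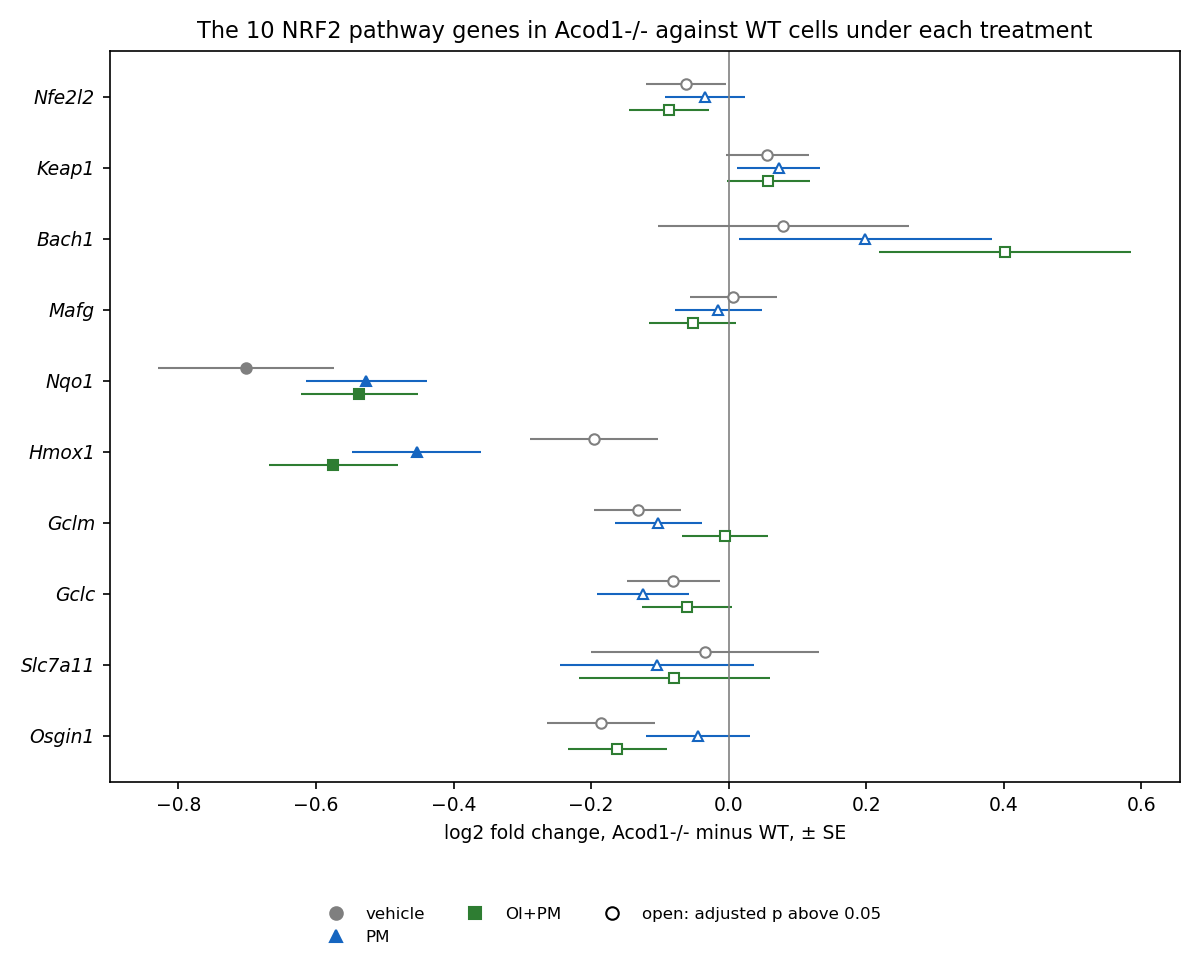
Log2 difference ± SE between Acod1-/- and WT cells for each gene with vehicle (grey circles), PM (blue triangles) and OI+PM (green squares), with open symbols where the adjusted p was above 0.05. Nqo1 lies between -0.70 and -0.53 under all treatments, Hmox1 between -0.57 and -0.20, and the other genes within -0.19 to 0.40.

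The steps themselves were compared between genotypes by interaction terms. For the PM step 0 of the 10 genes and 0% of all genes tested passed in edgeR, and for the OI step 0 of the 10 and 0% of all. None of the 10 had an unadjusted p of 0.05 or less in either interaction, and DESeq2 called 0 of them. Over all genes, 273 had an unadjusted p of 0.05 or less for the PM step and 717 for the OI step, and DESeq2 called 3 and 34. For the OI step edgeR called 525 genes (153 with a higher and 372 with a lower log2 fold change in Acod1-/- cells) without WT OI+PM replicate 1 and 58 without the filter on low counts. The PM step of Nqo1 was larger in Acod1-/- cells by 0.17 (SE 0.16) and that of Hmox1 smaller, at -0.26 (SE 0.13). The OI steps differed by -0.12 to 0.20 over the 10 genes. Under the alternatives this difference ran from -0.067 to 0.538 for Bach1, -0.265 to 0.039 for Hmox1 and -0.246 to 0.260 for Slc7a11.

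Other genes of the pathway were taken as 2 lists. The list of other NRF2 targets held 26 genes of thioredoxin, glutathione, NADPH, iron and detoxification metabolism, of which 25 passed the filter on low counts. After PM, 23 of the 25 rose in WT and 24 in Acod1-/- cells (12.6% and 12% of all genes), and 0 fell in edgeR, in DESeq2 or at an unadjusted p of 0.05, with medians of 0.90 and 0.91 on the log2 scale. After OI on top of PM, 25 rose in WT and 24 in Acod1-/- cells (21.3% and 13.9% of all genes), and 0 fell by the same 3 measures, with medians of 1.05 and 0.96. The genes that did not pass were Fech and, in WT, Slc40a1 after PM, and Txn1 after OI in Acod1-/- cells.

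Gsta3, a glutathione S-transferase, had the largest PM step of this list, with log2 fold changes of 2.91 and 3.27 in WT and Acod1-/- cells (SE 0.15 and 0.16). Me1, the NADP-dependent malic enzyme, followed with 1.65 and 1.56, and Gss, glutathione synthetase, with 1.61 and 1.54 (SE 0.14 to 0.15). Gss had the largest OI step, with 2.26 and 2.06, ahead of Srxn1, sulfiredoxin, with 2.23 and 1.84 (SE 0.08 each), and Prdx1, peroxiredoxin 1, with 1.75 and 1.73 (SE 0.14 each). Gss overlaps Acss2 on the opposite strand, and how strand was counted is not known. With OI+PM, 3 of the 25 genes were lower in the libraries labelled Acod1-/- (4.45% of all genes), Srxn1 by -0.63, Gss by -0.54 and Ftl1, the ferritin light chain, by -0.49. DESeq2 called 5 of the 25 lower, 6 were lower at an unadjusted p of 0.05, and with the 2 groups fitted alone 0 of all genes were called lower, so these 3 calls ended.

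The list of NRF2 partners and turnover held 17 genes, of which 15 passed the filter. After PM, 4 of the 15 rose and 1 fell in WT, where 12.6% of all genes rose and 12.2% fell, and 4 rose and 0 fell in Acod1-/- cells (2 fell at an unadjusted p of 0.05 and 2 by DESeq2), where 12% of all genes rose and 11.9% fell. The medians were 0.01 and 0.07. After OI on top of PM, 6 rose and 2 fell in WT (21.3% and 22.6% of all genes), and 4 rose and 2 fell in Acod1-/- cells (13.9% and 20.6% of all genes), with medians of 0.12 and 0.10. Sqstm1, the autophagy receptor p62 that binds KEAP1, rose by 1.30 and 1.29 after PM (SE 0.12 each) and by 1.13 and 0.84 after OI (SE 0.12 each). Maff, a small MAF gene, rose by 0.93 and 0.84 after PM and by 1.20 and 0.75 after OI (SE 0.18 to 0.21). Palb2, a BRCA2 partner whose protein also binds KEAP1, fell after OI, with -1.07 and -0.72 (SE 0.14 each). Gsk3b, a kinase that marks NRF2 for degradation by a route independent of KEAP1, fell after PM in WT at -0.47 (SE 0.15, adjusted p = 0.047 in edgeR), and in Acod1-/- cells a similar difference of -0.44 (SE 0.15, adjusted p = 0.0633 in edgeR) did not pass. Trim21, a ubiquitin ligase that modifies p62, was the third named gene after PM in Acod1-/- cells, with a rise of 0.34 (SE 0.08).

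**Figure D5:**
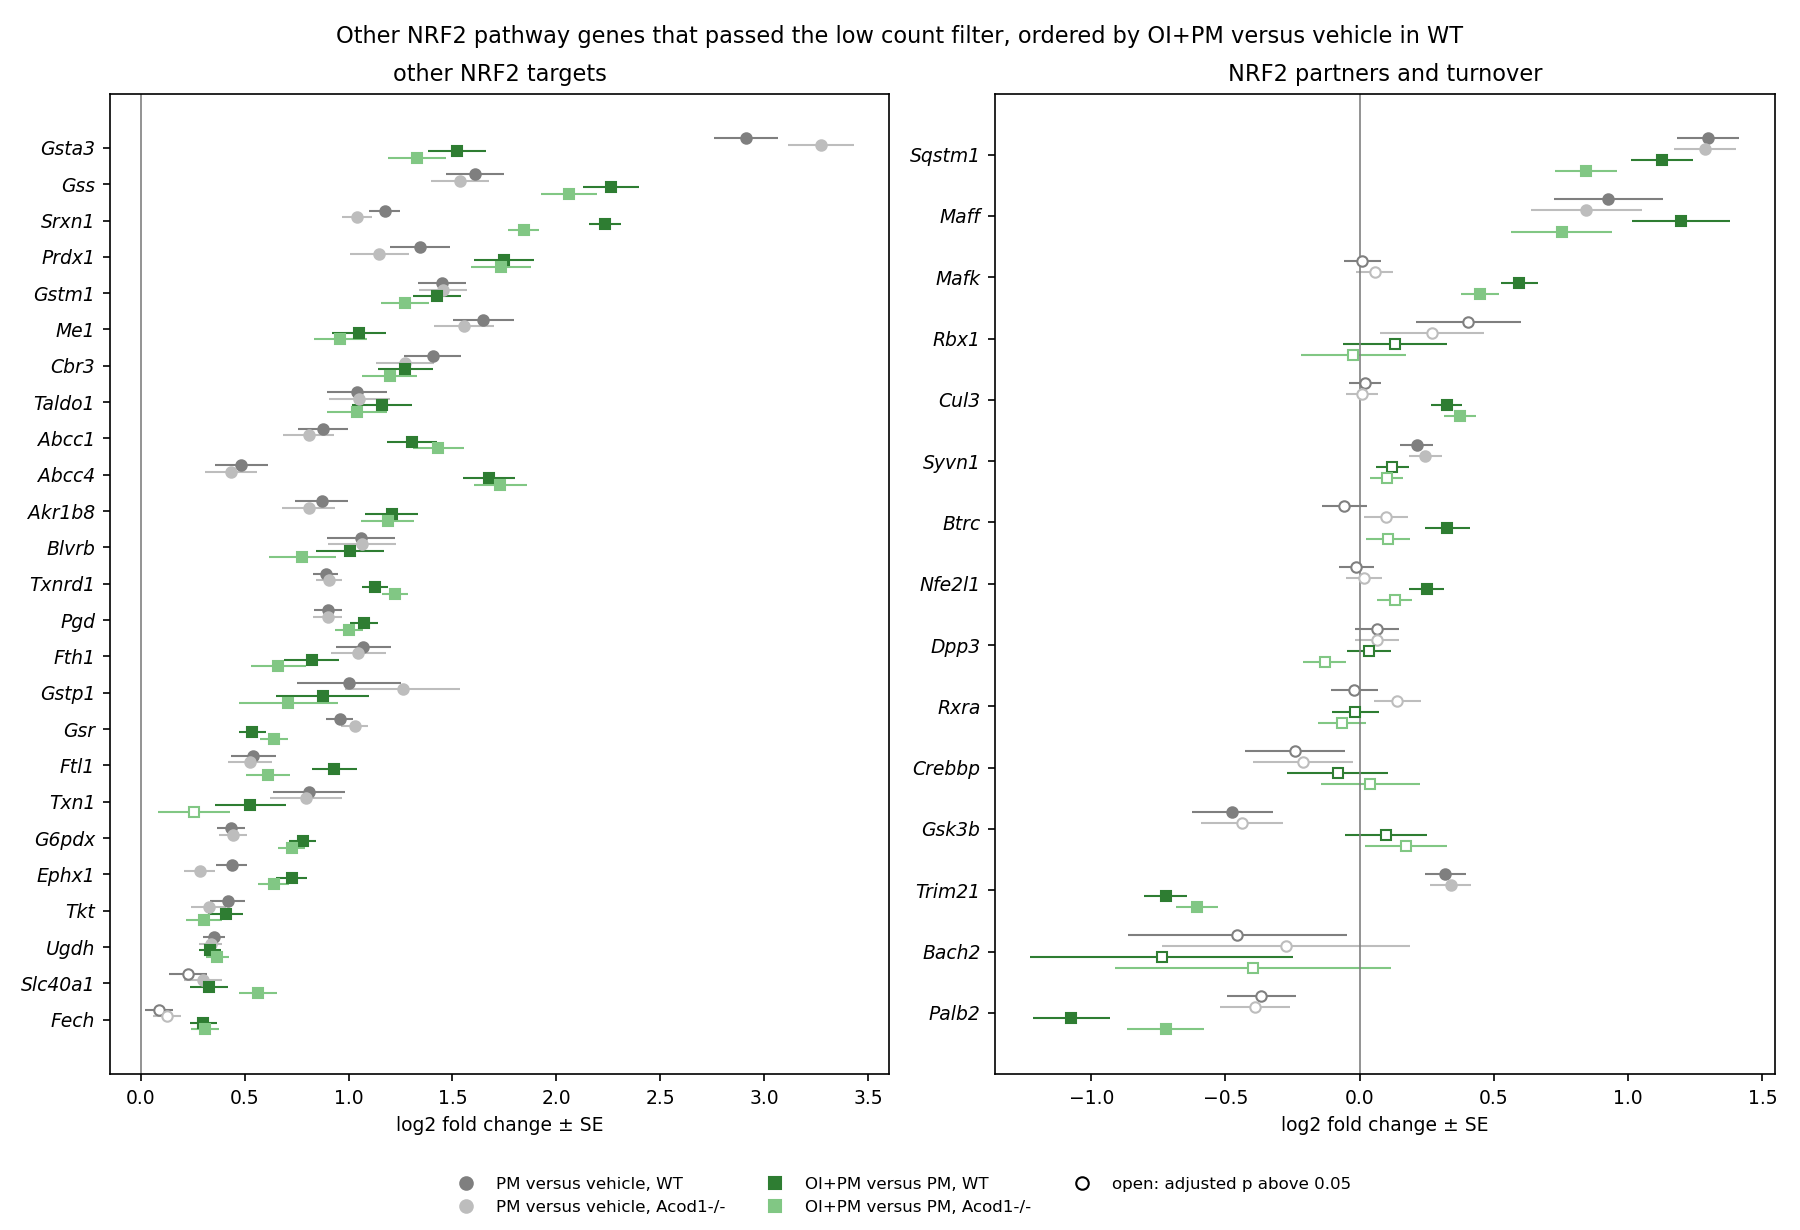
Log2 fold change ± SE of the 25 other NRF2 target genes (left) and 15 partner and turnover genes (right), ordered by OI+PM against vehicle in WT, for PM against vehicle (circles) and OI+PM against PM (squares) in WT (dark) and Acod1-/- cells (light), with open symbols where the adjusted p was above 0.05. The target genes lie to the right of 0 throughout, from 0.09 for Fech to 3.27 for Gsta3, and the partner and turnover genes lie on both sides.

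The genes whose log2 CPM followed Nqo1 most closely over the 12 libraries, among 9562 genes with a mean of at least 5 CPM, were Acss2 (r = 0.999), Gsr (0.998), Tsku (0.997), Procr (0.996) and Il1f9 (0.996). Procr went from 27.7 ± 1.47 CPM with vehicle to 176 ± 5.0 with PM and 733 ± 184 with OI+PM in WT (SD, n = 2). Those closest to Nfe2l2 were Gdpd1 (r = 0.987), Il1a (0.986), Hspa5 (0.986), Calr (0.982) and Nfkbia (0.981), and Il1a went from 1.27 ± 0.214 CPM to 19.9 ± 0.624 and back to 4.94 ± 0.425 in WT. These correlations describe libraries that share 6 treatment groups and are not tests.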

How the data were processed

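RNA-Seq counts per gene were deposited for 12 libraries. Per the labels and the paper's methods, the authors sequenced single-end reads, mapped them to GRCm38 with STAR (2.5.3a in the submitters' processing notes) and counted them with featureCounts, without normalization. The annotation release and the handling of strand are not given in the sources used here. Each library's group came from its label. Gene symbols, positions and exonic lengths were taken from GENCODE M21 on GRCm38, and 48435 of 48795 identifiers matched.

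Genes with CPM above 1.5 in at least 2 libraries were tested. Counts were scaled by TMM and fitted in edgeR 4.0.16 (R 4.3.3) as 6 group means with the quasi-likelihood test. Steps, genotypes and interactions were contrasts of these means, adjusted by Benjamini-Hochberg over all 11228 genes tested. Each SE is the one implied by the F statistic, that is, the change over the root of F. Normalized CPM are TMM-scaled, and an SD of 2 libraries is imprecise. Where libraries of 2 groups are said not to overlap, the share of all genes doing so was not counted. DESeq2 1.42.0, other scalings and filters, a gene length offset, the compared groups alone, a replicate block and dropping each library in turn were the alternatives.

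The 10 genes, the lists and the tests were chosen with earlier results of these data known, so no list is independent evidence. Named from each list were the 3 genes with the largest change among those that passed in PM against vehicle and in OI+PM against PM, and, for Nqo1 and Nfe2l2, the 5 genes with the highest Pearson correlation (log2 CPM with a prior count of 2). Genes outside this rule that are named, such as Ftl1, Fech, Slc40a1 and Txn1, were chosen after their values were seen.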

Additional observations from a re-analysis of the deposited data

How the results depend on the processing

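The counts of genes that rose or fell with PM, with OI on top of PM and over both steps, and the counts for the step differences and interactions, stayed within 1.5 times their reported value under each of 21 alternatives, the replicate block included, which called 8, 8, 8, 8, 9 and 9 genes for the 6 treatment comparisons. In the same order the replicate block called 27.4%, 25.5%, 45.7%, 35.6%, 66.6% and 51% of all genes. The counts between genotypes did not stay within 1.5 times. With vehicle, 1 gene was called (1.83% of all genes called). It was 4 with the compared groups alone (20.6%) and 2 without the filter on low counts (1.72%). With PM, 2 genes were called (2.4% of all genes called). Leaving out a library lowered or kept both counts and raised neither, as given with the genotype differences above. With OI+PM, 2 genes were called, against 0 with the compared groups alone (0.0178% of all genes called, against 6.96%) and 0 to 4 when a library was left out (48.6% of all genes at the 4). The cause was not tested. With the replicate block the counts between genotypes were 1, 2 and 2 (1.71%, 2.27% and 7.84% of all genes called). Same-numbered libraries deviated together within WT (r = 0.23 and 0.24 between vehicle and each PM group, 0.73 between PM and OI+PM) and in opposite directions between WT PM and Acod1-/- PM (r = -0.41), with r between -0.41 and 0.73 over the 15 pairs of groups. The labels do not say what a number marks, so whether the numbers pair libraries is not known, and they were treated as shared numbers only. A block with exchanged numbers in the latter comparison, added after seeing the data, called 2 genes. It called 3.51% of all genes, against 2.4% without a block.

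Signs turned only for values that had not passed the test. With total count scaling Keap1 gave -0.105 (WT) and -0.0587 (Acod1-/-) for OI+PM against PM, Bach1 -0.141 for OI+PM against vehicle in WT and Gclm -0.0117 for the step difference in WT. With the filter in all libraries Keap1 gave -0.0062 and -0.0038 for OI+PM against PM. With the gene length offset Bach1 gave 0.002 for PM in Acod1-/- cells (0.0074 with the replicate block) and Gclm -0.0248 (-0.0251) for the step difference in WT. Leaving out a library gave Bach1 -0.416 to 0.001 (WT) and -0.183 to 0.0308 (Acod1-/-) with PM, -0.074 to 0.531 for OI+PM against PM and -0.265 to 0.34 for OI+PM against vehicle in WT. It gave Keap1 -0.0139 to 0.0644 (WT) and -0.0194 to 0.0415 (Acod1-/-) for OI+PM against PM, and Gclm -0.0413 to 0.0951 for the step difference in WT. Of 88 values of single genes, 57 kept their direction and their side of the threshold under all alternatives. The 88 leave out genotype differences of genes other than Nqo1 and Hmox1, and interactions other than the PM step of these genes. Signs turned there as well. Examples are Slc7a11 between genotypes with PM (-0.34 to 0.18) and Hmox1 in the interaction for the OI step (-0.27 to 0.04).

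With 2 libraries a group, leaving 1 out leaves a lone library that is assumed to vary like the others. Small differences in Bach1, Keap1 and Nfe2l2 were near the limit of what 2 libraries resolve. Nqo1 with vehicle rested on 77 to 139 reads a library.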
